A study of Homo sapiens with 54 samples.

Results

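The genes described here form the cholesterol pathway as it was read in BT549 cells, a human triple-negative breast cancer line. They are a list of 29 gene symbols out of the 26517 rows of each count table, taken by symbol, a rule that uses no measured value: 18 enzymes from acetoacetyl-CoA to cholesterol, 5 genes of sterol sensing, 4 of sterol transport and efflux, and the fatty acid synthesis enzymes SCD and FASN. The list itself was chosen with earlier results of these data known. All 29 were found in every table and all passed the filter on low counts in each experiment. 3 separate experiments, 18 groups of 3 libraries each, were read. In the GATA6 experiment cells carried a control siRNA (siCtl) or a pool directed at GATA6, a zinc-finger transcription factor (siGATA6), for 72 h before a 2 h exposure to vehicle or to dexamethasone (DEX, 500 nM), a synthetic glucocorticoid. In the BRM014 experiment they received DMSO or 10 µM BRM014, which blocks the ATPases of the chromatin remodelling complex SWI/SNF, each alone or together with 500 nM DEX, and were labelled 4 h or 24 h. The shared protocol names no 24 h treatment, so that time is the sample labels' own. In the AP-1 experiment siCtl, siRNA against FRA1 (the product of FOSL1) or siRNA against JUN was combined with vehicle or 500 nM DEX, for times that the labels do not give. All groups are of the wild-type line, and none was given a change of sterol supply by its label.

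Cells build cholesterol from acetyl-CoA by way of mevalonate, farnesyl diphosphate and squalene. When sterols run low in the endoplasmic reticulum, the escort protein SCAP carries the SREBP factors, encoded by SREBF1 and SREBF2, to the Golgi, where they are cut and freed to switch on the enzyme genes, and when sterols are plentiful the INSIG proteins hold the escort back. The efflux pump gene ABCA1 is instead a classic target of the liver X receptors, which sense oxidised sterols, so that enzymes and pump usually move in opposite ways when sterol supply changes.

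Labels and depth were checked first. Per library the GATA6 experiment had 12888724 to 30530736 counts, the BRM014 experiment 13243316 to 29339329 counts and the AP-1 experiment 10186607 to 16352524 counts, and the 29 genes together took 0.403% to 1.49% of them. GATA6 fell from 85.2 ± 6.51 CPM (counts scaled to a library of 1e6, mean ± SD over the 3 libraries of a group) to 10.3 ± 0.164 CPM in siGATA6, FOSL1 from 172 ± 11.6 to 46.8 ± 5.22 CPM in siFRA1 and JUN from 280.4 ± 12.02 to 99.1 ± 13.1 CPM in siJUN. The mesenchymal markers VIM, FN1 and CDH2 were present in every library, whereas EPCAM, ESR1 and PGR stayed at or below 0.365 CPM. CDH1, the other epithelial marker looked at, is not reported here. Libraries were not alike within the BRM014 experiment. At 24 h replicate 3 held the smallest share of counts from the 29 genes in each of the 4 groups, and replicate 2 the least of the mesenchymal marker ZEB1, with 29.4, 9.28, 4.90 and 7.07 CPM in DMSO, BRM014, DEX and both, against 25.6 to 104 CPM in the other libraries of that time. In the AP-1 experiment replicate 3 held the largest share in every group. Results that rest on such libraries are given with and without them.

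The start regions of 6 genes around which the results turn are shown first. They are RefSeq windows on GRCh38.p14 from 250 bases before to 50 bases after the annotated start, 5′ to 3′ on the gene's own strand: HMGCS1 chr5:43313363-43313662 (minus strand), STARD4 chr5:111512486-111512785 (minus), INSIG1 chr7:155297628-155297927 (plus), SREBF2 chr22:41832855-41833154 (plus), SCD chr10:100346983-100347282 (plus) and ABCA1 chr9:104928106-104928405 (minus). In the GENCODE annotation of GRCh38 the genes themselves span chr5:43289395-43313512, chr5:111496033-111512590, chr7:155297776-155310235, chr22:41833079-41907308, chr10:100347124-100364834 and chr9:104781002-104928237 in the same order. Capitals mark matches, on either strand, to the letters CCAAT, the box bound by NF-Y, a partner of the SREBPs, and to TCACNCCAC, the core of the sterol regulatory element.
HMGCS1: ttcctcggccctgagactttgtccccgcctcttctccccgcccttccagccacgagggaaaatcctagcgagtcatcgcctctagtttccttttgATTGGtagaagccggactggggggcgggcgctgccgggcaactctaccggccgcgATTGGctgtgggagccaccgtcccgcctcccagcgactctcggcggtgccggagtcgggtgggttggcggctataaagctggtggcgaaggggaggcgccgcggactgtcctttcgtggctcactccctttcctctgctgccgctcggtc
STARD4: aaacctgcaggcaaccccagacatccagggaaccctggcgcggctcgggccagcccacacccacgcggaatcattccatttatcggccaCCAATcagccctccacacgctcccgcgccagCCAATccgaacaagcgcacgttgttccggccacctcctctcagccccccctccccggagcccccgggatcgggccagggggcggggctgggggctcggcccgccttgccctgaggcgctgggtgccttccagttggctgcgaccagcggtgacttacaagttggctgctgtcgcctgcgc
INSIG1: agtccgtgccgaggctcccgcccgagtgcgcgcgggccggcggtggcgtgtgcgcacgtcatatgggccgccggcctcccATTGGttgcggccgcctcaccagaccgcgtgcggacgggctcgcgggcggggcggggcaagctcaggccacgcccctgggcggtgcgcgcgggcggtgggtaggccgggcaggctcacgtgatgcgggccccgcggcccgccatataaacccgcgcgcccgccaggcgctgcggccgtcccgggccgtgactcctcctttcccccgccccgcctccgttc
SREBF2: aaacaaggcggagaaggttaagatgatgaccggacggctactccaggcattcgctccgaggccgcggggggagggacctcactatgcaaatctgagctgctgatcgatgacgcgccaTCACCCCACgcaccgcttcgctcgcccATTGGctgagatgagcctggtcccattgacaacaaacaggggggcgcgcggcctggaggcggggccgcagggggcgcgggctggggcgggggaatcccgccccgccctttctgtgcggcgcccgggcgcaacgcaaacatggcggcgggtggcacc
SCD: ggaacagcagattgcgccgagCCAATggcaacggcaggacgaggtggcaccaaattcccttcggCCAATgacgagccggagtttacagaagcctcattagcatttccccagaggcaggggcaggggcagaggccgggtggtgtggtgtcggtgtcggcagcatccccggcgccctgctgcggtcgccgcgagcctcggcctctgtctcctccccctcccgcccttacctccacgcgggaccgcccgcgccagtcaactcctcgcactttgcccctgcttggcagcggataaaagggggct
ABCA1: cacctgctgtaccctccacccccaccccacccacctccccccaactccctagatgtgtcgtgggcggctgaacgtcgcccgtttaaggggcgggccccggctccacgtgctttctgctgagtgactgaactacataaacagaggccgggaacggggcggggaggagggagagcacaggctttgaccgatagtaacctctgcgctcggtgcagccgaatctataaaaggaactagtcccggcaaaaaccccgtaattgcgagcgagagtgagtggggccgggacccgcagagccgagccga
In the windows shown HMGCS1, STARD4 and SCD each hold 2 NF-Y boxes, INSIG1 and SREBF2 1 each, and ABCA1 none. HMGCS1 has another annotated start, whose window (chr5:43313132-43313431, minus strand) holds 0 NF-Y boxes and 0 sterol cores and is not shown. In SREBF2 a sterol element core, TCACCCCAC, begins 133 bases before the start and lies 18 bases from the NF-Y box. Over the 32 windows found for 25 of the 29 genes, the NF-Y box occurred in 20 (62.5%, against 34.6% of all 35116 windows) and the sterol core in 1 (3.12%, against 1.13%). The E-box CANNTG, which SREBPs and many other factors can bind, occurred in 18 (56.2%, against 68.7%). A match describes letters and not binding, and these windows are short.

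Per length of exon, SCD was by far the most abundant of the 29 in untreated cells, with an RPKM (CPM over exon length in kilobases) of 1082 in the GATA6 experiment, 1433 in the BRM014 experiment at 4 h and 988 in the AP-1 experiment. FASN, FDFT1, SQLE and INSIG1 lay between 79.7 and 133 on the same scale, and ABCA1, HSD17B7 and INSIG2 were at 0.196 to 1.98. ABCA1 was the lowest of the 29 in each experiment, so its large relative changes concern a scarce transcript. Strand use in the authors' counting is not given in the sources used here, and several genes share exon bases with a neighbour on the other strand, so reads may be split: HMGCS1 with an antisense transcript (703 bases), FDPS with RUSC1-AS1 (476 bases) and ACAT2 with SOD2 (1106 bases). FDPS, CYP51A1, HSD17B7 and SCD also have pseudogene copies. Levels are not compared across experiments, because the labels give total RNA for the GATA6 and BRM014 libraries and polyA RNA for the AP-1 libraries.

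Differences between groups were tested with edgeR's quasi-likelihood test over all genes of an experiment, and a member counts as called where its adjusted p was below 0.05. In bulk RNA a change in some cells and a smaller change in all cannot be told apart. Values are log2 fold changes (log2FC) with their standard error (SE). Library values stand in the order of replicate number, those of the control group first. Omission of all libraries of a replicate number took them from every group of the experiment. Over 15 comparisons and 29 genes, 435 values in all, there were 64 calls, 59 of them lower and 5 higher, and 5 were over 2-fold. ABCA1 accounted for 4 of the 5 higher calls and TM7SF2, a sterol reductase, for the other. HMGCS1, which makes HMG-CoA early in the pathway, was called lower in 8 of the 15 comparisons, more often than any other member. NSDHL, SCAP and NPC2 were called in none.

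**Figure D1:**
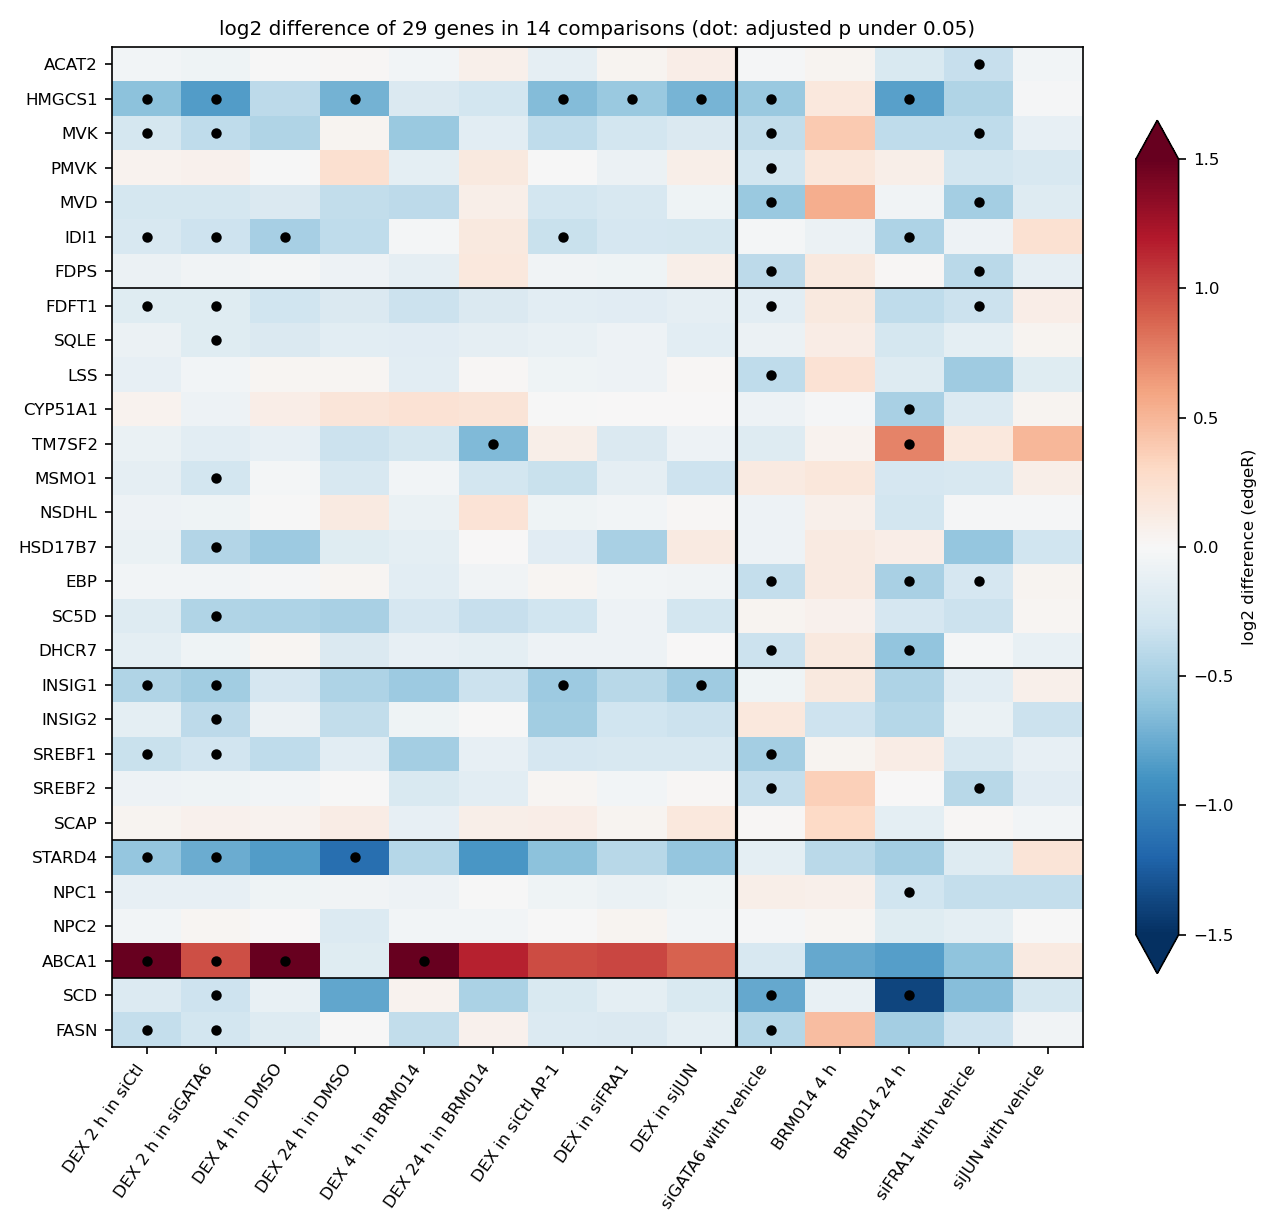
The log2 difference of each of the 29 genes (rows, grouped from top to bottom into mevalonate enzymes, squalene to cholesterol enzymes, sterol sensing, transport and efflux, and fatty acid synthesis) is plotted in 14 of the 15 comparisons (columns, DEX comparisons on the left). Blue is lower, red is higher, colours saturate at 1.5, and a dot marks an adjusted p under 0.05. Most dots sit on blue, the row of ABCA1 is red in all DEX columns but that at 24 h in DMSO, and HMGCS1 carries 8 dots.

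The question of the DEX comparisons is what activation of the glucocorticoid receptor does to these transcripts. In siCtl cells 2 h of DEX lowered 8 of the 29 genes and raised 1, when 15.9% of all genes tested were called, 8.74% higher and 7.2% lower. The median of the 29 was -0.13, against -0.00 over all genes. Those lower were HMGCS1, STARD4, INSIG1, FASN, SREBF1, MVK, IDI1 and FDFT1, in order of size, and the one higher was ABCA1.

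HMGCS1 read 380.4, 387 and 338.7 CPM in siCtl with vehicle and 261.5, 241 and 221 CPM with DEX (log2FC -0.61, SE 0.111, adjusted p = 0.00383). The groups did not overlap. The call did not hold without all replicate 2 libraries (-0.57, adjusted p = 0.130). STARD4, a soluble carrier that moves cholesterol between membranes, read 79.5, 72.0 and 83.4 CPM with vehicle and 50.8, 49.9 and 57.0 CPM with DEX (log2FC -0.58, SE 0.0720, adjusted p = 3.34e-06). INSIG1, the sterol-sensitive retention protein of the SCAP complex, read 394, 390.3 and 407 CPM against 299.9, 293 and 282 CPM (log2FC -0.45, SE 0.0613, adjusted p = 2.30e-05). For both genes every DEX library lay below every vehicle library, and the calls held without any 1 library or replicate number. SREBF1 (-0.34, adjusted p = 8.17e-07) was lower while SREBF2 (-0.08, adjusted p = 0.354) was not called. FASN, which makes palmitate, was lower (-0.35, adjusted p = 0.00322), but not without all replicate 2 libraries (adjusted p = 0.0944). Mevalonate kinase MVK was lower (-0.26, adjusted p = 0.0159), a call that was lost without siCtl vehicle replicate 2, siCtl DEX replicate 1 or siCtl DEX replicate 3 (adjusted p 0.0512 to 0.0590). The isomerase IDI1 (-0.24) and the squalene synthase FDFT1 (-0.18) completed the list, and squalene epoxidase SQLE was at -0.09, adjusted p = 0.262.

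ABCA1, which loads cholesterol onto lipid-poor apolipoprotein at the cell surface, went the other way. It read 2.93, 2.91 and 3.70 CPM with vehicle and 8.79, 9.98 and 9.63 CPM after 2 h of DEX in siCtl (log2FC 1.53, SE 0.140, adjusted p = 1.49e-08). The lowest DEX library was above the highest vehicle library, and the call held in every test that left out a library.

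In siGATA6 cells DEX lowered 14 and raised 1 of the 29, against 15.9% of all genes called (7.98% higher, 7.96% lower), with a median of -0.18 (-0.00 over all genes). HMGCS1 went from 265.1, 269.04 and 219.6 CPM to 153, 147 and 121 CPM (log2FC -0.84, SE 0.112, adjusted p = 4.85e-04). STARD4 went from 78.9, 70.4 and 64.3 CPM to 43.8, 42.6 and 41.4 CPM (log2FC -0.74, SE 0.0722, adjusted p = 9.89e-08). INSIG1 went from 389.7, 395 and 356 CPM to 294, 262.7 and 236 CPM (log2FC -0.53, SE 0.0613, adjusted p = 2.71e-06). None of these groups overlapped. Called here as well were SC5D, a late sterol desaturase (-0.45, adjusted p = 1.08e-04), HSD17B7 (-0.44, adjusted p = 0.00667), INSIG2 (-0.39, adjusted p = 0.0396), MVK (-0.38), IDI1 (-0.31), SCD (-0.31), SREBF1 (-0.28), MSMO1 (-0.28), FASN (-0.27), FDFT1 (-0.19) and SQLE (-0.18). SREBF2 was at -0.06, adjusted p = 0.511. INSIG2 lost its call without any 1 of the 6 libraries (adjusted p 0.0504 to 0.155), and HSD17B7 without siGATA6 vehicle replicate 2 (adjusted p = 0.0736). Without all replicate 2 libraries 9 genes were called.

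ABCA1 went from 2.29, 2.61 and 3.34 CPM to 5.61, 5.47 and 5.24 CPM in siGATA6 (log2FC 0.97, SE 0.148, adjusted p = 3.36e-05). The size of a DEX effect was compared between siCtl and siGATA6 directly, as the difference of both differences, and none of the 29 was called, when 0.338% of all genes were. At an unadjusted p under 0.05 there were 3, and DESeq2 called 0. With the replicate number added to the fit, edgeR called 1, HMGCS1, and 1.81% of all genes. The difference was -0.56 for ABCA1 (95% interval -0.99 to -0.13, adjusted p = 0.491), -0.23 for HMGCS1 (-0.59 to 0.12), -0.16 for STARD4 (-0.37 to 0.05), -0.08 for INSIG1 (-0.26 to 0.10), 0.06 for SREBF1 (-0.06 to 0.17), 0.02 for SREBF2 (-0.13 to 0.16) and -0.09 for SQLE (-0.23 to 0.04).

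**Figure D2:**
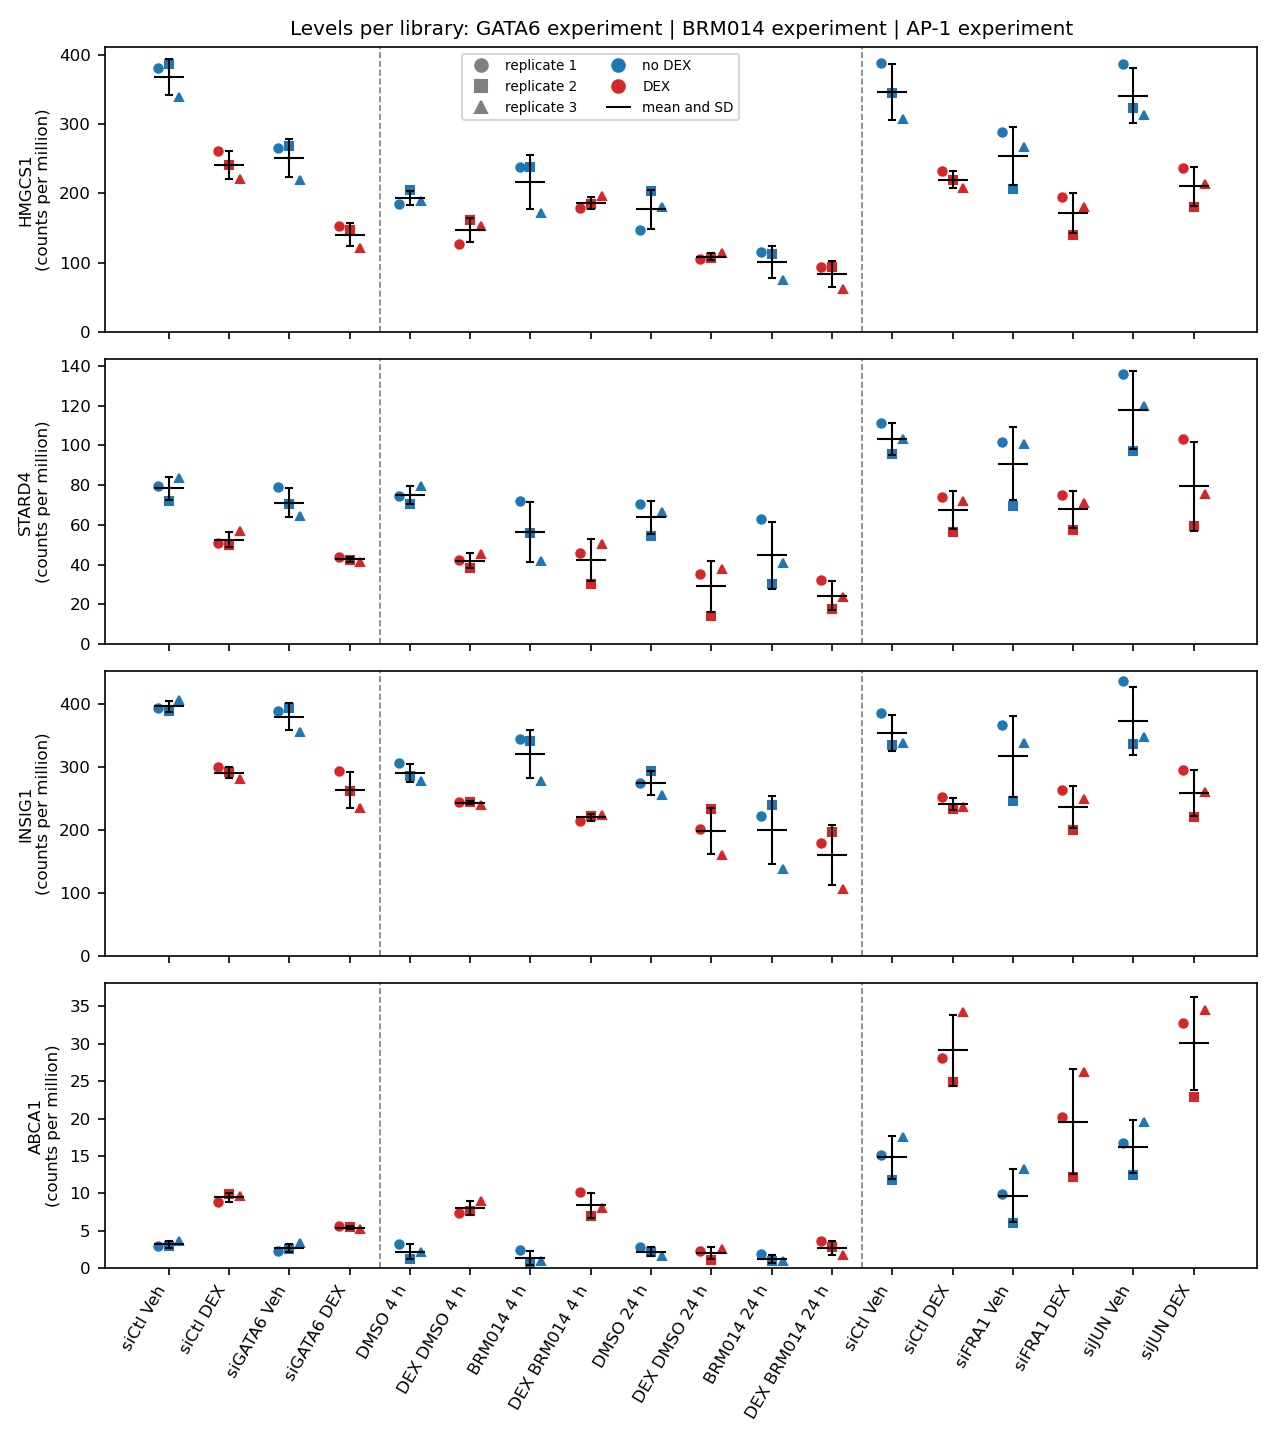
CPM of HMGCS1, STARD4, INSIG1 and ABCA1 are plotted for each of the 54 libraries by group, with marker shapes for replicate numbers, red for DEX and blue for no DEX, and bars for mean and SD. HMGCS1 sits lower with DEX in all 9 pairs of groups, and ABCA1 higher in all pairs but DMSO at 24 h, where its means were 2.22 ± 0.605 and 2.00 ± 0.820 CPM.

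At 4 h in the BRM014 experiment DEX alone raised 1 and lowered 1 of the 29 (6.90% of them, below the 12.5% of all genes called, 7.77% higher and 4.78% lower). ABCA1 read 3.20, 1.28 and 2.21 CPM in DMSO and 7.43, 7.66 and 9.06 CPM with DEX (log2FC 1.85, SE 0.395, adjusted p = 0.00238), without overlap, and was not called without all replicate 3 libraries (adjusted p = 0.0920). IDI1 read 145, 149.8 and 154 CPM against 106, 105 and 105 CPM (log2FC -0.50, SE 0.156, adjusted p = 0.0363), also without overlap. Its call was lost without any 1 of the 6 libraries (adjusted p 0.0673 to 0.108). HMGCS1 (-0.39, adjusted p = 0.176) and STARD4 (-0.83, adjusted p = 0.121) had DEX libraries that all lay below the DMSO libraries and were not called. INSIG1 was at -0.25, adjusted p = 0.558, SREBF1 at -0.38, adjusted p = 0.654, SREBF2 at -0.05, adjusted p = 0.963 and SQLE at -0.21, adjusted p = 0.445. When only the 6 libraries of these groups were fitted, 9 of the 29 were called, 1 of them higher, and 21.0% of all genes.

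After 24 h of DEX 2 of the 29 were lower and none higher, again 6.90% against 25.6% of all genes (12.6% higher, 13% lower). HMGCS1 read 147, 203 and 181 CPM in DMSO and 105, 107 and 114 CPM with DEX (log2FC -0.71, SE 0.172, adjusted p = 0.00408). The groups did not overlap, and the call was lost only without all replicate 2 libraries (adjusted p = 0.124). STARD4 read 70.5, 54.4 and 66.2 CPM against 35.1, 14.2 and 38.0 CPM (log2FC -1.13, SE 0.329, adjusted p = 0.0159). The lowest value, 14.2 CPM, is DEX replicate 2, the library in which ZEB1 was at 4.90 CPM and the nuclear RNA MALAT1 at 301.6 CPM, against 1013 to 1483 CPM in DMSO. Without that library STARD4 was at -0.80, adjusted p = 0.0672, without DMSO replicate 1 at -1.06, adjusted p = 0.0550, and without all replicate 2 libraries at -0.90, adjusted p = 0.0237. Without all libraries of number 1 or of number 3 it was not called (adjusted p 0.0767 to 0.0906). The part of that library's composition in the value was not tested. INSIG1 (-0.47, adjusted p = 0.0835), SREBF1 (-0.16, adjusted p = 0.785), SREBF2 (-0.00, adjusted p = 0.998) and SQLE (-0.16, adjusted p = 0.433) were not called.

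At 24 h ABCA1 was not called. It read 2.84, 2.17 and 1.63 CPM in DMSO and 2.35, 1.06 and 2.58 CPM with DEX (log2FC -0.18, SE 0.426, adjusted p = 0.810), and the groups overlapped. The DEX effect at 24 h minus that at 4 h was -2.03 (SE 0.580, adjusted p = 0.0322), and ABCA1 was the only 1 of the 29 called for this difference, when 8.9% of all genes were (2.61% positive, 6.28% negative). This call was lost without any of 7 of the 12 libraries (adjusted p 0.0529 to 0.0983; DMSO 4 h replicates 2 and 3, DEX 4 h replicates 2 and 3, DMSO 24 h replicates 1 and 2, and DEX 24 h replicate 2), and the value stayed between -2.41 and -1.70 throughout. The same difference was -0.32 for HMGCS1 (95% interval -0.82 to 0.19), -0.30 for STARD4 (-1.27 to 0.66), -0.21 for INSIG1 (-0.78 to 0.35), 0.22 for SREBF1 (-0.78 to 1.22), 0.04 for SREBF2 (-0.46 to 0.54) and 0.05 for SQLE (-0.35 to 0.45). Between DMSO at 24 h and DMSO at 4 h edgeR and DESeq2 called 0 of the 29, and edgeR 0% of all genes, with 0 of the 29 at an unadjusted p under 0.05. ABCA1 differed by -0.01 (SE 0.414), HMGCS1 by -0.12, STARD4 by -0.23, INSIG1 by -0.08, SREBF1 by 0.03, SREBF2 by -0.03 and SQLE by -0.08.

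In the AP-1 experiment DEX lowered 3 of the 29 in siCtl, when 5.51% of all genes were called, 3.46% higher and 2.05% lower. HMGCS1 read 388, 344.3 and 307 CPM with vehicle and 233, 219 and 208 CPM with DEX (log2FC -0.66, SE 0.143, adjusted p = 0.00825), without overlap. INSIG1 read 387, 336 and 338.9 CPM against 253.5, 235 and 238 CPM (log2FC -0.55, SE 0.148, adjusted p = 0.0382) and IDI1 173, 154 and 145 CPM against 135, 122 and 119 CPM (log2FC -0.33, SE 0.0919, adjusted p = 0.0352), neither with overlap. INSIG1 lost its call without any 1 of the 6 libraries (adjusted p 0.0707 to 0.171), IDI1 without vehicle replicate 1 or 2 or DEX replicate 2 or 3 (adjusted p 0.0731 to 0.245), and HMGCS1 without all replicate 3 libraries (adjusted p = 0.225). ABCA1 read 15.1, 11.7 and 17.6 CPM against 28.2, 24.9 and 34.3 CPM (log2FC 0.98, SE 0.294, adjusted p = 0.0812); every DEX library was higher, yet it was not called. STARD4 (-0.62, adjusted p = 0.130), SREBF1 (-0.25, adjusted p = 0.882), SREBF2 (0.03, adjusted p = 0.973) and SQLE (-0.12, adjusted p = 0.482) were not called either. DESeq2 called 5 of the 29 here, ABCA1 among them, and 5.23% of all genes, and a fit of these groups alone called 7 and 5.94%.

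With FRA1 knocked down DEX lowered 1 of the 29, HMGCS1, with 4.93% of all genes called (3.17% higher, 1.76% lower). HMGCS1 read 288, 207 and 266.3 CPM against 195, 139 and 181 CPM (log2FC -0.56, SE 0.143, adjusted p = 0.0287), without overlap, and the call was lost without vehicle replicate 1 or 3 or DEX replicate 2 or 3 (adjusted p 0.0707 to 0.153). With JUN knocked down it lowered 2, with 5.69% of all genes called (3.46% higher, 2.23% lower). HMGCS1 read 386, 323 and 313 CPM against 237, 181 and 214 CPM (log2FC -0.70, SE 0.143, adjusted p = 0.00517), and it was lost without all replicate 3 libraries (adjusted p = 0.152). INSIG1 read 436, 337.2 and 347.5 CPM against 295, 221 and 260.7 CPM (log2FC -0.53, SE 0.147, adjusted p = 0.0457), lost without vehicle replicate 1 or 3 or DEX replicate 2 or 3 (adjusted p 0.0656 to 0.227). Neither gene's groups overlapped in siJUN. In siFRA1 INSIG1 was at -0.42, adjusted p = 0.172, ABCA1 at 1.00, adjusted p = 0.1005, STARD4 at -0.42, adjusted p = 0.468, SREBF1 at -0.24, SREBF2 at -0.04 and SQLE at -0.08. In siJUN ABCA1 was at 0.88, adjusted p = 0.117, STARD4 at -0.57, adjusted p = 0.157, SREBF1 at -0.24, SREBF2 at 0.02 and SQLE at -0.16. The DEX effect in either knockdown minus that in siCtl was called by edgeR and DESeq2 for 0 of the 29 (edgeR called 0% of all genes for each; at an unadjusted p under 0.05 there were 0 in siFRA1 and 1 in siJUN). For HMGCS1 that difference was 0.09 in siFRA1 (95% interval -0.33 to 0.52) and -0.04 in siJUN (-0.47 to 0.38), for ABCA1 0.03 (-0.88 to 0.94) and -0.09 (-0.98 to 0.79), for INSIG1 0.13 and 0.02, for STARD4 0.20 and 0.04, for SREBF1 0.00 and 0.01, for SREBF2 -0.07 and -0.01, and for SQLE 0.04 and -0.04.

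Of the control-cell responses, 3 from separate cells and libraries were set side by side: 2 h in siCtl of the GATA6 experiment, 4 h in DMSO and siCtl of the AP-1 experiment. In each of these 3 comparisons 19 of the 29 genes had a negative log2FC with DEX (65.5%, against 25.5% of the 13360 genes tested in all), and 2 had a positive one, ABCA1 and SCAP (6.90%, against 25.7%). The 19 span the roles: MVK, MVD, IDI1, FDPS, HMGCS1 and ACAT2 of the mevalonate enzymes, FDFT1, SQLE, MSMO1, NSDHL, HSD17B7 and SC5D of the later ones, INSIG1, INSIG2 and SREBF1 of the sensors, STARD4 and NPC1 of the carriers, and both SCD and FASN. These are signs only, most without a call of their own. DEX at 24 h in DMSO, of the same experiment as the 4 h comparison, is not among the 3, and there 21 of the 29 were negative and 8 positive, ABCA1 among the negative (-0.18). The 3 genes lower at a call in siCtl of the AP-1 experiment, HMGCS1, INSIG1 and IDI1, were 3 of the 8 lower in siCtl of the GATA6 experiment. Over all genes 87.5% of those lower in the former were lower in the latter, and 24.7% the other way, so this overlap is near the background.

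The knockdown of GATA6 asks which of these transcripts depend on that factor without added hormone. With vehicle 13 of the 29 were lower in siGATA6 than in siCtl and none higher, against 23.7% of all genes called, 12.1% higher and 11.6% lower, with a median of -0.15 (0.01 over all genes). SCD, which desaturates stearoyl-CoA, read 6093, 5760 and 5560 CPM in siCtl and 3597, 3528 and 3116 CPM in siGATA6 (log2FC -0.77, SE 0.0810, adjusted p = 1.51e-05). MVD, the decarboxylase that closes the mevalonate steps, read 127, 144 and 115 CPM against 84.1, 97.2 and 80.4 CPM (log2FC -0.55, SE 0.0963, adjusted p = 0.00144). HMGCS1 read 380.4, 387 and 338.7 CPM against 265.1, 269.04 and 219.6 CPM (log2FC -0.55, SE 0.110, adjusted p = 0.00565). All 3 genes were lower in every siGATA6 library than in any siCtl library. SREBF1 (-0.51, adjusted p = 3.33e-09), FASN (-0.42, adjusted p = 7.34e-04) and FDPS, which makes farnesyl diphosphate (-0.39, adjusted p = 5.59e-04), were lower. LSS, MVK, SREBF2, EBP, DHCR7, PMVK and FDFT1 were lower with log2FC from -0.38 to -0.15.

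By role, 5 of the 7 mevalonate enzymes, 4 of the 11 later enzymes, both SREBF genes among the 5 sensors, 0 of the 4 transport genes and both fatty acid enzymes were lower. The genes that DEX moved most were not all among them: STARD4 was at -0.14, adjusted p = 0.151, INSIG1 at -0.06, adjusted p = 0.506, ABCA1 at -0.24, adjusted p = 0.305 and SQLE at -0.09, adjusted p = 0.192. No call was lost without any single library among the 6 genes named in order of size, but HMGCS1 was lost without replicate numbers 1 or 2 (adjusted p 0.0511 to 0.101), MVD without number 1 (adjusted p = 0.1003) and FDPS without number 1 (adjusted p = 0.0671). Beside these values, RN7SK, a transcript without a polyA tail, averaged 2.98 ± 0.413 CPM with siCtl against 8.41 ± 2.99 CPM with siGATA6, and the ribosomal precursor RNA45S5 11.3 ± 0.549 against 35.2 ± 13.6 CPM (adjusted p = 0.0076 and 0.00961). The part of library composition in the lower values was not tested.

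**Figure D3:**
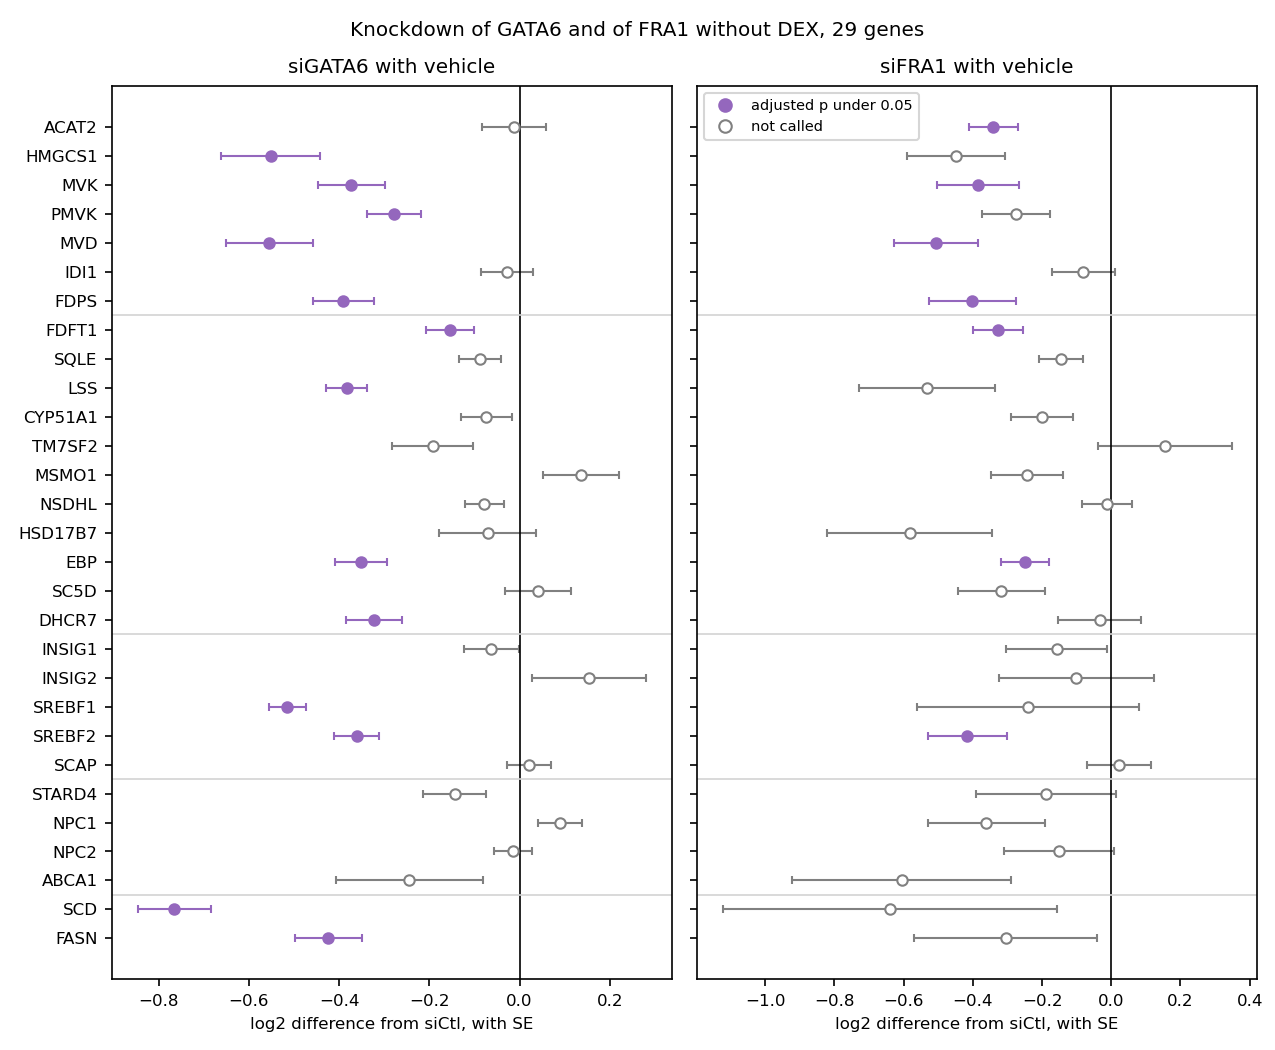
The log2 difference from siCtl, with its SE, is plotted for the 29 genes without DEX in siGATA6 (left, 6 libraries compared) and siFRA1 (right, 6 libraries compared). Filled purple points passed an adjusted p under 0.05. In both panels the filled points lie left of 0, 13 in siGATA6 and 7 in siFRA1, and the error bars are wider on the right.

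Knockdown of FRA1 lowered 7 of the 29 and raised none, with 10.8% of all genes called, 5.54% higher and 5.28% lower, and a median of -0.27 (-0.00 over all genes). MVD read 76.7, 64.2 and 71.7 CPM in siCtl and 53.0, 43.9 and 52.8 CPM in siFRA1 (log2FC -0.51, SE 0.121, adjusted p = 0.00946). SREBF2 read 263.5, 287 and 321 CPM against 224, 187 and 243 CPM (log2FC -0.42, SE 0.115, adjusted p = 0.0260). FDPS read 168, 178 and 178 CPM against 133, 112 and 152 CPM (log2FC -0.40, SE 0.126, adjusted p = 0.0490). In each the groups did not overlap. MVK (-0.39), ACAT2, the thiolase at the head of the pathway (-0.34), FDFT1 (-0.33) and EBP, a sterol isomerase (-0.25), were lower as well. HMGCS1 (-0.45, adjusted p = 0.0540), SREBF1 (-0.24, adjusted p = 0.704), STARD4 (-0.19, adjusted p = 0.622), INSIG1 (-0.16, adjusted p = 0.556), SQLE (-0.15, adjusted p = 0.157) and ABCA1 (-0.61, adjusted p = 0.258) were not called. Single libraries decided several of these calls: MVD was lost without siCtl replicate 1 or siFRA1 replicate 2 (adjusted p 0.0509 to 0.0526), SREBF2 without siCtl replicate 2 or 3 or siFRA1 replicate 1 or 2 (adjusted p 0.0672 to 0.109), FDPS without any but siFRA1 replicate 3 (adjusted p 0.0873 to 0.176) and MVK without any but siFRA1 replicate 1 (adjusted p 0.0603 to 0.163). The count was 0 without all replicate 1 libraries, 1 without all replicate 2 libraries and 10 without all replicate 3 libraries.

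Of the 13 genes lower in siGATA6 and the 7 lower in siFRA1, 6 were the same: MVK, MVD, FDPS, FDFT1, EBP and SREBF2. Both comparisons come from separate cells and controls. Over all 13401 genes tested in both, 165 were lower in both, 10.3% of those lower in siGATA6 and 23.0% of those lower in siFRA1. BRM014 at 24 h, which also lowered 7 of the 29, shared 4 with siGATA6 (DHCR7, SCD, HMGCS1 and EBP). Over all genes 28.0% of those lower in siGATA6 were shared with it. With siFRA1 it shared 1, EBP, when over all genes 27.1% of those lower in siFRA1 were shared. SREBF2 thus fell with either factor's knockdown, to 264.5 ± 6.84 from 339.9 ± 19.7 CPM and to 218 ± 28.3 from 290.3 ± 28.9 CPM, while in no DEX comparison was it called. Its siFRA1 call was lost without any of 4 of the 6 libraries. The siFRA1 count itself was 0 without all replicate 1 libraries and 1 without all replicate 2 libraries. In siGATA6 the calls of MVK, FDFT1, EBP and SREBF2 were not followed under omission of libraries.

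Knockdown of JUN gave 0 calls among the 29 in edgeR and in DESeq2, with 6.82% of all genes called and 3 of the 29 at an unadjusted p under 0.05. With the replicate number added to the fit, edgeR called 5 of the 29, 2 higher and 3 lower, and 18.7% of all genes. HMGCS1 was at -0.02 (95% interval -0.32 to 0.28), SREBF2 at -0.17 (-0.42 to 0.07), SREBF1 at -0.12, INSIG1 at 0.08, STARD4 at 0.19, ABCA1 at 0.13 and SQLE at 0.04. TM7SF2 had the largest value, 0.50 (0.10 to 0.90). The knockdowns of FRA1 and JUN share their siCtl libraries and were not tested against each other.

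Blocking SWI/SNF for 4 h changed none of the 29 at the threshold, in edgeR or in DESeq2, when 8.68% of all genes were called. Of the 29, 2 had an unadjusted p under 0.05, SREBF2 (0.36) and SCAP (0.30). When only the libraries of these groups were fitted, 3 of the 29 were called, all higher, and 13.5% of all genes. Of the 29 values 23 were positive, with a median of 0.14 (0.01 over all genes). HMGCS1 was at 0.16 (95% interval -0.19 to 0.52), INSIG1 at 0.14, STARD4 at -0.41, SREBF1 at 0.04, SQLE at 0.11 and ABCA1 at -0.77 (-1.70 to 0.16).

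After 24 h of BRM014 7 of the 29 were lower and 1 higher, which is 27.6% of them against 31.5% of all genes (15.1% higher, 16.4% lower) and so close to the background. SCD read 9183, 7590 and 4521 CPM in DMSO and 3610, 3250 and 1363 CPM with BRM014 (log2FC -1.37, SE 0.438, adjusted p = 0.0229). The groups did not overlap, and replicate 3 was the lowest library of both. HMGCS1 read 147, 203 and 181 CPM against 116, 113 and 74.4 CPM (log2FC -0.81, SE 0.172, adjusted p = 0.00101), without overlap, and this call held without any 1 library or replicate number. DHCR7, the last reductase before cholesterol, read 362, 422 and 344.1 CPM against 262.3, 301 and 187 CPM (log2FC -0.59, SE 0.181, adjusted p = 0.0163), also without overlap. CYP51A1, which demethylates lanosterol (-0.49, adjusted p = 0.00844), EBP (-0.48, adjusted p = 0.00691), IDI1 (-0.46, adjusted p = 0.0274) and NPC1, which exports cholesterol from lysosomes (-0.30, adjusted p = 0.0338), were lower. TM7SF2 rose, from 24.3, 29.5 and 23.6 CPM to 46.1, 53.1 and 30.3 CPM (log2FC 0.74, SE 0.189, adjusted p = 0.00449), without overlap, and was not called without all replicate 1 libraries (adjusted p = 0.124).

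The SREBF genes were not called at 24 h of BRM014, SREBF1 at 0.11 (95% interval -0.60 to 0.82) and SREBF2 at 0.01 (-0.35 to 0.36), nor were INSIG1 (-0.46, adjusted p = 0.0779), STARD4 (-0.51, adjusted p = 0.259), SQLE (-0.26, adjusted p = 0.156) and ABCA1 (-0.83, adjusted p = 0.162). Replicate 3 was the lowest of its group for SCD, FASN and SREBF1 in all 4 groups at 24 h, and SREBF1 there was 674, 595 and 450.0 CPM in DMSO and 751, 728 and 376 CPM with BRM014. Without all replicate 3 libraries SCD was at -1.29, adjusted p = 2.23e-04, and 6 genes were called, whereas without all replicate 1 libraries 2 were called and without all replicate 2 libraries 3. SCD lost its call without DMSO replicate 1 or 2 or BRM014 replicate 3 (adjusted p 0.0577 to 0.0919). DHCR7 lost it without DMSO replicate 2 or BRM014 replicate 3 (adjusted p 0.0744 to 0.0849), and IDI1 without replicate 2 or 3 of either group (adjusted p 0.0998 to 0.114). CYP51A1 and EBP held without any 1 library. CYP51A1 was lost without all libraries of number 1 or of number 2 (adjusted p 0.0547 to 0.0782). EBP was lost without those of number 1 or of number 3 (adjusted p 0.0579 to 0.0638).

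**Figure D4:**
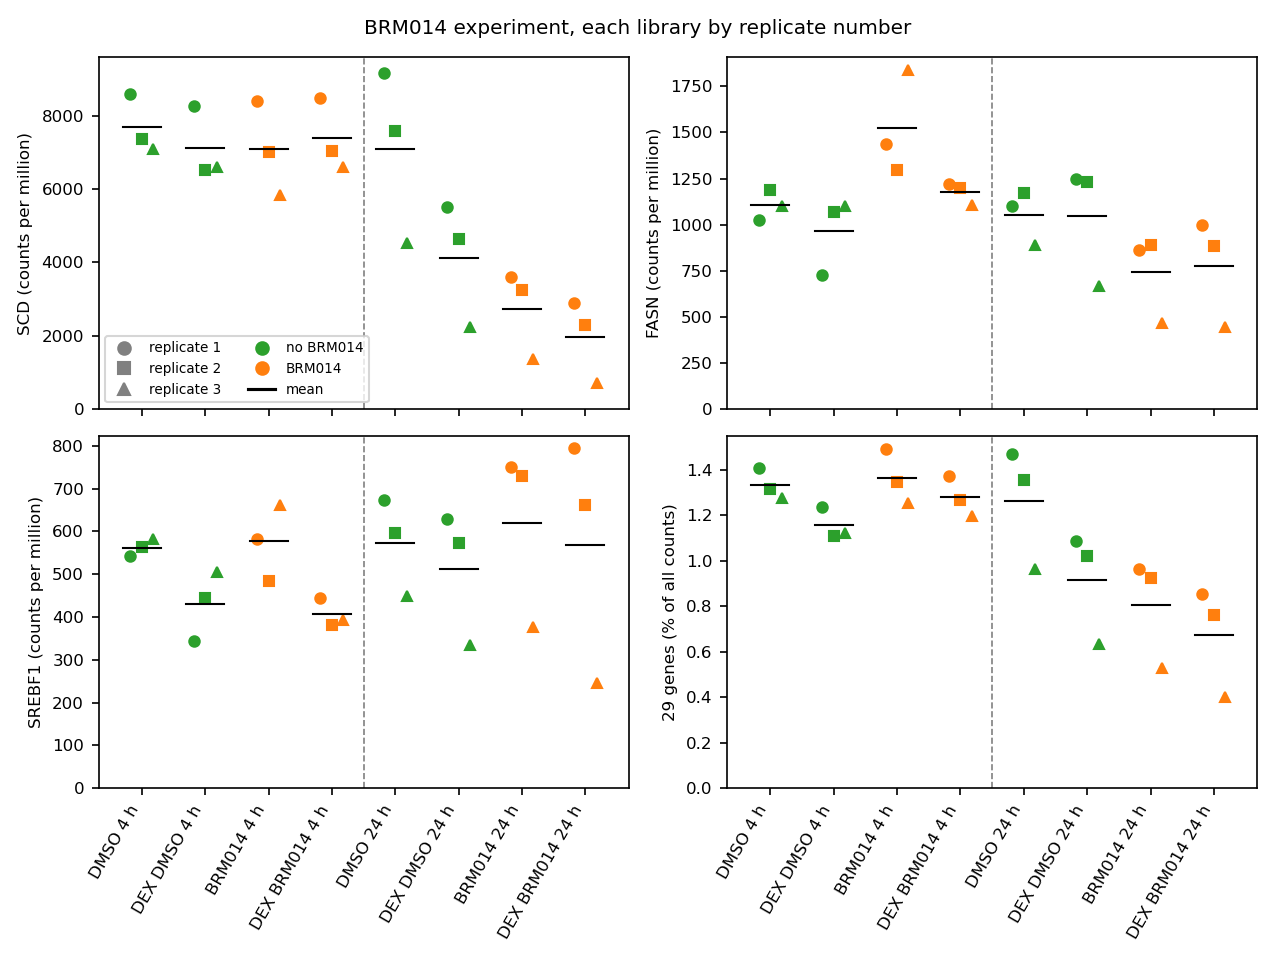
CPM of SCD, FASN and SREBF1, and the share of all counts taken by the 29 genes, are plotted for the 24 libraries of the BRM014 experiment, with marker shapes for replicate numbers, orange for BRM014, green for none and a line for each mean. At 24 h SCD falls from a mean of 7098 CPM in DMSO to 2741 CPM with BRM014, and the triangle of replicate 3 is the lowest point of each 24 h group in all 4 panels.

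The BRM014 effect at 24 h minus that at 4 h was called for 2 of the 29, against 9.44% of all genes (2.89% positive, 6.55% negative), HMGCS1 at -0.97 (SE 0.242, adjusted p = 0.0126) and EBP at -0.62 (SE 0.184, adjusted p = 0.0361). HMGCS1 read 185, 205 and 189 CPM against 239, 239 and 172 CPM at 4 h without and with BRM014, with overlap. EBP read 94.9, 104 and 105 CPM against 96.7, 105 and 132 CPM at 4 h, and 85.2, 100.4 and 95.7 CPM against 64.3, 77.7 and 59.4 CPM at 24 h. The EBP call was lost without any of 8 of the 12 libraries (adjusted p 0.0530 to 0.112), namely any DMSO library at 4 h, BRM014 replicate 3 at 4 h, DMSO replicates 2 and 3 or BRM014 replicates 1 and 3 at 24 h. That of HMGCS1 was lost without all libraries of number 1 or of number 2 (adjusted p 0.0856 to 0.150). The difference was 0.07 for SREBF1, -0.35 for SREBF2, -0.60 for INSIG1, -0.11 for STARD4, -0.37 for SQLE and -0.06 for ABCA1, none called.

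With SWI/SNF blocked, 4 h of DEX raised 1 of the 29, ABCA1, and lowered none, against 6.12% of all genes called (3.79% higher, 2.33% lower). ABCA1 read 2.44, 0.705 and 0.929 CPM with BRM014 and 10.2, 6.96 and 8.05 CPM with both (log2FC 2.68, SE 0.418, adjusted p = 1.98e-04), without overlap, and the call held under every omission of a library. The rise was 0.83 larger than in DMSO, a difference whose 95% interval was -0.36 to 2.03. At 24 h with BRM014 ABCA1 read 1.88, 0.924 and 0.953 CPM against 3.62, 2.79 and 1.81 CPM (log2FC 1.15, SE 0.431, adjusted p = 0.0857), not called and with overlap of the groups. HMGCS1 was at -0.21, adjusted p = 0.663 at 4 h and -0.27, adjusted p = 0.356 at 24 h, INSIG1 at -0.54, adjusted p = 0.121 and -0.32, adjusted p = 0.331, and STARD4 at -0.42, adjusted p = 0.643 and -0.87, adjusted p = 0.0921. SREBF1 was at -0.51 and -0.12, SREBF2 at -0.23 and -0.15, and SQLE at -0.17 and -0.14.

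At 24 h with BRM014 DEX lowered 1 of the 29, TM7SF2, against 13.8% of all genes called (7.55% higher, 6.21% lower). It read 46.1, 53.1 and 30.3 CPM with BRM014 and 32.4, 31.3 and 18.3 CPM with both (log2FC -0.66, SE 0.189, adjusted p = 0.0222); the groups overlapped, and the call was lost without BRM014 replicate 1 or 2 or DEX with BRM014 replicate 3 (adjusted p 0.0796 to 0.121). This comparison shares its BRM014 libraries with that in which TM7SF2 rose. The DEX effect with BRM014 minus that in DMSO was called for 0 of the 29 at either time, by edgeR or DESeq2, when 2.29% of all genes were called at 4 h and 6.54% at 24 h. At an unadjusted p under 0.05 there were 1 at 4 h, IDI1 (0.48), and 2 at 24 h, IDI1 (0.52) and ABCA1 (1.33, 95% interval 0.07 to 2.60). For HMGCS1 the difference was 0.18 at 4 h (-0.32 to 0.68) and 0.44 at 24 h (-0.07 to 0.94), for STARD4 0.41 and 0.27, for INSIG1 -0.29 and 0.15, for SREBF1 -0.12 and 0.04, for SREBF2 -0.18 and -0.15, and for SQLE 0.04 and 0.02.

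Lipid genes outside the 29 were followed as a second list of 36, of which 34 were tested in the GATA6 experiment and 35 in each of the others. MYLIP, the ligase that marks lipoprotein receptors for breakdown and, like ABCA1, a liver X receptor target, moved against ABCA1 where both were called. It fell with DEX from 3.16, 2.10 and 2.38 CPM to 0.691, 1.09 and 1.43 CPM at 2 h in siCtl (log2FC -1.20, SE 0.256, adjusted p = 0.00153). It fell from 2.44, 2.69 and 3.08 CPM to 0.871, 0.508 and 0.555 CPM at 4 h in DMSO (log2FC -2.09, SE 0.404, adjusted p = 8.04e-04), when ABCA1 rose. At 24 h it was still lower (-1.44, adjusted p = 0.00793). In siGATA6 it was at -0.26, adjusted p = 0.542, and in siCtl of the AP-1 experiment at -0.97, adjusted p = 0.0985. Of the 3 liver X receptor genes and targets tested, MYLIP included, DEX lowered 1 in siFRA1, in siJUN and at 4 h with BRM014. The lowest values there were -1.07, -1.07 and -1.92, and 1.76%, 2.23% and 2.33% of all genes were called lower. DESeq2 called 0 of the second list in siFRA1 and in siJUN. The receptors themselves, NR1H3 and NR1H2, were at -0.21 and -0.08 at 2 h in siCtl and at -0.23 and 0.02 at 4 h in DMSO, none called. Both genes of the pair ABCA1 and MYLIP are scarce, so their log2FC rest on few counts.

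Genes of fatty acid synthesis and desaturation led the second list in siGATA6. Of its 34 genes 11 were lower and 1 higher there, against 11.6% and 12.1% of all genes, led by the desaturases FADS1 (-0.64) and FADS2 (-0.62), the phosphatase LPIN1 (-0.54), the acetyl-CoA synthetase ACSS2 (-0.41) and the citrate carrier SLC25A1 (-0.33). With BRM014 at 24 h 12 of 35 were lower and 2 higher, against 16.4% and 15.1% of all genes. LPIN1 fell from 89.5, 97.2 and 73.7 CPM to 22.4, 26.0 and 18.7 CPM (log2FC -1.96, SE 0.142, adjusted p = 1.92e-09) and the malic enzyme ME1 from 60.7, 61.2 and 50.2 CPM to 20.6, 18.9 and 16.4 CPM (log2FC -1.62, SE 0.126, adjusted p = 5.10e-09). Neither pair of groups overlapped. PNPLA3 (-1.10), FADS2 (-1.06), TMEM97 (-0.95), ELOVL6 (-0.92), the lipoprotein receptor SCARB1 (-0.89) and ELOVL5 (-0.86) were lower too. DEX at 24 h in DMSO lowered 5 of 35 and raised 4, together 25.7% of them and close to the 25.6% of all genes called. It lowered ME1 (-1.21, adjusted p = 2.75e-07), LPIN1 (-0.70, adjusted p = 6.31e-04), ELOVL6 (-0.61, adjusted p = 0.00212), VLDLR (-0.42, adjusted p = 0.00185) and MYLIP, and CYB5R3 (0.51), TMEM97 (0.47) and ERLIN1 (0.19) were among those raised. In siFRA1 4 of 35 were higher and 1 lower, against 5.54% and 5.28% of all genes. SCARB1 (0.48, adjusted p = 1.73e-04), VLDLR (0.53, adjusted p = 0.0252) and ERLIN1 (0.37) were among those higher, and the elongase ELOVL6 (-0.41, adjusted p = 0.0158) was lower.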

How the data were processed

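RNA of BT549 cells was sequenced and the authors deposited 1 table of raw read counts per gene symbol for each of 54 libraries, with featureCounts, SAMtools, bcl2fastq and DESeq2 named in the submitters' processing notes, on GRCh38. The file headers of the AP-1 libraries name primary alignments of STAR, and no other aligner, version, annotation or strand setting is given in the sources used here. Library numbers in those headers differ from the deposited numbers, and the samples were assigned by the deposited record. The labels name total RNA for the GATA6 and BRM014 experiments and polyA RNA for the AP-1 experiment, while their shared protocol describes ribosomal RNA depletion. Replicates are called biological in the first 2 experiments and only replicates in the AP-1 experiment, where p-values may measure technical spread. Pairs of replicates, 54 in all, differed by more than sampling noise (chi-square per degree of freedom 3.04 to 106). 1 series-wide table added no library and was not used, and MDA-MB-231 cells were not analysed here.

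Each experiment was fitted alone on its counts with edgeR 4.0.16 in R 4.3.3 (group means, TMM scaling, filterByExpr, robust quasi-likelihood test, two-sided, Benjamini-Hochberg adjustment over 13897, 14547 and 13658 genes). The biological coefficient of variation was 5.57%, 18.8% and 9.80% in the GATA6, BRM014 and AP-1 experiment, so the precision was lowest in the BRM014 experiment at a depth like that of the GATA6 experiment. SE is the size of the log2FC over the root of the F statistic, and intervals are 95% and cover the spread between libraries. CPM use TMM-scaled totals. The procedure was tested on simulated counts with a common spread for all genes and no variation shared by replicate number. That test does not cover such variation, changes in scarce genes or libraries that stand apart. Alternatives were DESeq2 1.42.0, its size factors, library totals alone, no filter, the compared groups only, a replicate block and omission of libraries.

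The members, the further lipid genes, the motifs and the tests were chosen with earlier results of these data known. Called genes were named in order of size, up to 6 per direction, the others being listed so that every member is accounted for, and HMGCS1, SQLE, INSIG1, SREBF1, SREBF2, ABCA1 and STARD4 were followed throughout. The further list is given by counts and examples, and not every gene of it is reported here. Exon lengths and gene positions are from GENCODE (GRCh38).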

Additional observations from a re-analysis of the deposited data

Results flagged for a closer look

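3 results differed between time points by a test of the difference itself. For BRM014 these were 2 of the 29 (6.90%), below the 9.44% of all genes called. For DEX it was 1 of the 29 (3.45%), below 8.9% of all genes. The HMGCS1 response to BRM014 at 24 h minus that at 4 h was -0.97 (log2, SE 0.242, adjusted p = 0.0126), from 0.16 at 4 h and -0.81 at 24 h. That of the sterol isomerase EBP was -0.62 (SE 0.184, adjusted p = 0.0361), from 0.14 and -0.48. That of ABCA1 to DEX was -2.03 (SE 0.580, adjusted p = 0.0322), from 1.85 and -0.18. The adjusted p are from edgeR over all genes, and each value rests on 12 libraries. The EBP call was lost without any of 8 of these libraries, and that of ABCA1 without any of 7. The call of HMGCS1 was lost without all libraries of number 1 or of number 2.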

How the results depend on the processing

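The counts of called members depended on the fit. Of 738 values of named genes under alternatives, 579 stayed on their side of the threshold, 159 lost the call (142 of them among 450 omissions of libraries) and 0 changed sign. These genes were followed because the reported fit had called them, so a change of sign was unlikely from the start. The direction of members not called was not followed in this way. The counts that moved by over 1.5 times were these, and the cause was not tested. Shares of all genes called in the same fit stand in brackets. With library totals alone 15 genes were called for DEX at 2 h in siCtl (17.6%) and 5 for DEX in siCtl of the AP-1 experiment (5.52%). Without the filter 1 was called for BRM014 at 24 h against 4 h (5.2%), 0 for DEX at 24 h against 4 h (4.63%), 0 for DEX in siFRA1 (3.09%) and 1 for DEX in siJUN (3.62%). DESeq2 called 3 for DEX at 24 h with BRM014 (12.7%), and 5, 2 and 4 for DEX in siCtl, siFRA1 and siJUN of the AP-1 experiment (5.23%, 4.57% and 5.29%). A fit of the compared groups alone called 3 for BRM014 at 4 h (13.5%), 4 at 24 h (25.1%), 9 for DEX at 4 h (21.0%) and 1 at 24 h (13.1%) in DMSO, 2 and 0 with BRM014 (5.28% and 6.42%), and 7 and 0 for DEX in siCtl and siFRA1 of the AP-1 experiment (5.94% and 4.41%). With library totals alone the median of all genes shifted by 0.136 for BRM014 at 24 h, and calls over all genes there split into 3672 higher and 1785 lower, against 2198 and 2391 as reported.

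Replicate numbers were not used as pairs in the fits reported above, because the labels give no batch. Correlations of same-numbered deviations fell to 0.0897 in the GATA6, -0.187 in the BRM014 and 0.0539 in the AP-1 libraries. Their medians were 0.156, 0.148 and 0.238. Those for different numbers were -0.0724, -0.0781 and -0.0783. Deviations were taken from group means, so positive values for same numbers bring negative ones for different numbers, which add no separate evidence. In the same order 12 of 12, 21 of 24 and 17 of 18 libraries correlated best with their own number. Same-numbered libraries thus shared variation, which the fits above leave in the spread. This is a hint from the data and not the design. With a replicate block 15 genes were called for DEX at 2 h in siCtl (22.8%), 10 for BRM014 at 24 h against 4 h (14%), 4 and 4 for DEX at 4 h and 24 h in DMSO (15.4% and 31.2%), 3 and 3 with BRM014 (8.06% and 18.6%), 10, 6 and 9 for DEX in siCtl, siFRA1 and siJUN (9.74%, 8.19% and 10.5%), 21 for siFRA1 (24.6%) and 5 for siJUN (18.7%). It called 1, HMGCS1, for the difference of the DEX effect between siGATA6 and siCtl (-0.23, adjusted p = 0.00819 in edgeR; 1.81%). The block ended none of the 48 gene calls it was tried on.

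Leaving out replicates gave 6 to 12 calls for DEX at 2 h in siCtl, 8 to 14 in siGATA6 and 9 to 14 for siGATA6, with 0 to 0 for their interaction. In the BRM014 experiment the ranges were 0 to 1 for BRM014 at 4 h, 2 to 10 at 24 h and 0 to 4 for their difference, 1 to 1 for DEX at 4 h in DMSO, 1 to 4 at 24 h and 0 to 1 for their difference, 1 to 2 and 0 to 1 for DEX with BRM014 at 4 h and 24 h, and 0 to 0 for both interactions and for DMSO over time. In the AP-1 experiment they were 0 to 5, 0 to 4 and 0 to 5 for DEX in siCtl, siFRA1 and siJUN, 0 to 10 for siFRA1, 0 to 1 for siJUN and 0 to 0 for both interactions. Groups of 3 and a wide spread between libraries of the BRM014 experiment limit what small differences can be called there.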

Other observations

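Values of 2 lipid genes outside the 29 add to those above. FADS1 was higher with DEX at 24 h when BRM014 was present (log2FC 0.93, SE 0.255, adjusted p = 0.0182), and read 311, 311 and 205 CPM with BRM014 and 657, 610.4 and 306 CPM with both. In DMSO at that time it was at 0.49, adjusted p = 0.177. The DEX effect with BRM014 minus that in DMSO at 24 h was not called for FADS1. It was called for 0 of the 11 genes of fatty acid synthesis and desaturation, against 6.54% of all genes. SCARB1, a lipoprotein receptor, fell with BRM014 at 24 h (-0.89) and not at 4 h (0.15, adjusted p = 0.539), a difference of -1.04, adjusted p = 7.36e-04.

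GATA6 itself was higher after 2 h of DEX in siCtl (0.45) and lower after 24 h in DMSO (-0.67), and FOSL1 was lower with DEX at 2 h (-1.82), 4 h (-1.97) and 24 h (-1.28) and in siCtl of the AP-1 experiment (-1.52). Both transcripts thus moved with the hormone, GATA6 upward at 2 h and downward at 24 h. Its values at 4 h and in the AP-1 experiment are not given here. Any link between these changes and the cholesterol genes was not tested.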
